A study of Mus musculus and Homo sapiens with 41 samples.

Results

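The 40 genes described here encode core parts and regulators of the spliceosome, and they were measured by the length of sequence covered by H2AK119ub peaks within 5 kb of each transcription start site (TSS). They are 40 of 21911 protein-coding windows of 10 kb in mouse (mm10, GENCODE vM21) and, by upper-case symbol, 40 of 20007 in human (hg38, GENCODE v44). They were chosen by name. By role they fall into 7 genes of the Sm ring, 3 of U1, 13 of U2 and U2AF, 9 SR proteins, and 8 of U5, the tri-snRNP and the Prp19 complex. A list of 85 other spliceosome genes was followed beside them. Symbols in both species were matched by capital letters alone.

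The spliceosome removes introns from pre-mRNA. It is assembled on each intron from small nuclear ribonucleoproteins (snRNPs). Each is an snRNA bound by a ring of proteins, Sm proteins in all but U6, and by proteins of its own. U1 recognises the 5′ splice site, U2AF and U2 the 3′ splice site and the branch point, and the tri-snRNP that brings in U5 leads to the active enzyme, which the Prp19 complex stabilises. SR proteins bind exons and help to choose splice sites. H2AK119ub is a single ubiquitin on a lysine of histone H2A. The Polycomb complex PRC1 writes it and the deubiquitylase BAP1 removes it. It is best known at silent developmental genes, whereas genes for the splicing machinery are transcribed in nearly every cell. Mutations of the splicing genes SF3B1, U2AF1 and SRSF2 are, like those of TET2, recurrent in human myeloid malignancy.

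CUT&Tag, which tags DNA around an antibody's target with a tethered transposase, was applied to H2AK119ub in 39 libraries of 13 groups, 3 libraries each, and to BAP1 in 2 libraries. The BAP1 libraries came from untransfected wild-type (WT) cells of the first of 3 systems, mouse embryonic stem cells (mESCs). The mESC groups were untransfected WT and untransfected Tet2 knockout (KO), WT with the control siRNA siNC, and Tet2 KO with siNC, with siMbd6 or with siNsun2. The HSPC groups were lineage-negative, c-Kit-positive bone marrow cells of WT or Tet2-/- mice on a C57BL/6 background, 6 to 8 weeks old and of both sexes, namely WT with the control hairpin shNC, KO with shNC and KO with shMbd6. They had been cultured for 7 days. The K562 groups, from a human erythroleukaemia line, were WT with siNC and TET2 KO with siNC, siMBD6 or siNSUN2. MBD6 is a methyl-CpG-binding-domain protein that associates with the BAP1 complex, and NSUN2 methylates cytosines in RNA. WT and KO cells of mESCs and of K562 are separate lines obtained from other laboratories, so line and genotype cannot be told apart, and nothing in the labels says whether the 3 libraries of a group came from separate cultures or animals. No RNAi was given to the untransfected mESCs, and there was no knockdown in WT cells.

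The deposited files are peak lists, which give no depth, and a gene listed at 0 was either unmarked or below what that library could show. Untransfected mESC and WT siNC libraries held 24360 to 37392 peaks, KO siRNA mESC libraries 4251 to 12139, HSPC libraries 1398 to 8286 and K562 libraries 1919 to 4575. Of the Drosophila chromatin added to each sample, 42 to 92 peaks were listed in mESC libraries, 48 to 56 in WT shNC, 205 to 231 in KO shNC and 85 to 95 in KO shMbd6 HSPC libraries. Peak lists say nothing of expression, so the cell types could be checked only by the mark. In 2 or more of 3 WT mESC libraries it was found at 4 of 5 pluripotency genes and at 4 of 5 fibroblast markers. None of 5 HSPC markers carried it in 2 or more WT HSPC libraries, and of 5 K562 markers KLF1 alone did in WT K562 cells.

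The stretches of 250 bases before the RefSeq start (GRCm38.p6, 5′ to 3′ on the gene's strand) of 6 mouse genes are shown, because the results turn on peaks over them or on their absence. Capitals mark matches, on either strand, of the letters CCGGAAG (bound by ETS factors), GCGC, any base and TGCGC in a row (bound by NRF1) and TATAAA (the TATA box). Snrpd2 lies at chr7:19149588-19149837 (plus strand), Snrnp70 at chr7:45395743-45395992 (minus) and Srsf2 at chr11:116853095-116853344 (minus). Sf3b6 lies at chr12:4817358-4817607 (plus), Prpf6 at chr2:181601069-181601318 (plus) and Srsf3 at chr17:29032410-29032659 (plus).
Snrpd2: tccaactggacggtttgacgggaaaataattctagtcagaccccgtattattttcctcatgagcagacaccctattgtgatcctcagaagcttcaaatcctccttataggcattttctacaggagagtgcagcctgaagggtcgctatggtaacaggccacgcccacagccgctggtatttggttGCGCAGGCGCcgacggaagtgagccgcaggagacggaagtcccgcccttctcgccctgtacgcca
Snrnp70: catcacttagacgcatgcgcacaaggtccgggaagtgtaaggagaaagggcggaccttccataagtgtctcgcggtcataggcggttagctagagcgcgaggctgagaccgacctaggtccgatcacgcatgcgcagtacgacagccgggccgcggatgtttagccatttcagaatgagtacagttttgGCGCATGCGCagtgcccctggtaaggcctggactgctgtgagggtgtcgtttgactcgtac
Srsf2: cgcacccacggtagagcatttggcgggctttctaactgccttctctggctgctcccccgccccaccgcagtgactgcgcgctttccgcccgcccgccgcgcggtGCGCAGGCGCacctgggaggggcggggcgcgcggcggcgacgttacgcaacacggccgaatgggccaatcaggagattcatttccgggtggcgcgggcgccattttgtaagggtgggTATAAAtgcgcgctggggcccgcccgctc
Sf3b6: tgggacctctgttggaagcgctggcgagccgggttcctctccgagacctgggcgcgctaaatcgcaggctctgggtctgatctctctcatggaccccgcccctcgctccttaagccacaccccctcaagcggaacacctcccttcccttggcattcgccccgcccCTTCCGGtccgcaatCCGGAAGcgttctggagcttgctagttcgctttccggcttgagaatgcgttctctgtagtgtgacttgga
Prpf6: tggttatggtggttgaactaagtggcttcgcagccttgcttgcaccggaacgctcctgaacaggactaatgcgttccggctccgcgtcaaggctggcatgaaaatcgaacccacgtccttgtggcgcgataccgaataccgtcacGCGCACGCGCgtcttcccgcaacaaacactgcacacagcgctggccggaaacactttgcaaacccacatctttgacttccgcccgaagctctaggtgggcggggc
Srsf3: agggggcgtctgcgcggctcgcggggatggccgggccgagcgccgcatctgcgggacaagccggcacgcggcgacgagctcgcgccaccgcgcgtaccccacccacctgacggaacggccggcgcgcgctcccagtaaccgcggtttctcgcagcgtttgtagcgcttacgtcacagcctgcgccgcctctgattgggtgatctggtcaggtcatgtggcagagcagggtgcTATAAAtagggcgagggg

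Peaks lay over the printed stretches of Snrpd2 and Snrnp70 in 3 of 3 libraries of WT, KO and WT siNC mESCs, WT shNC HSPCs and KO shMbd6 HSPCs, and in 0 of 3 of KO siNC mESCs and KO shNC HSPCs. The Sf3b6 stretch was covered over all of its 250 bases in every library of WT, KO and WT siNC mESCs. The Srsf2 stretch was reached in 2 of 3 WT, 1 of 3 KO and 1 of 3 WT siNC mESC libraries, 0 of 3 WT HSPC libraries and 3 of 3 shMbd6 libraries. That of Prpf6 was reached in 3 of 3 libraries of WT, KO and WT siNC mESCs, 1 of 3 of KO siNC and 2 of 3 of KO siMbd6 mESCs, and 2 of 3 shMbd6 libraries. No library had a peak over that of Srsf3. RefSeq promoter entries were matched for 33 of the 40 members, 39 entries in all. CCGGAAG stood in 17 of the 39 (43.6%), against 6.91% of all 32851 entries over the same 250 bases. The NRF1 motif stood in 12 (30.8%) against 3.74%, and TATAAA in 4 (10.3%) against 12.4%. The members' entries were also richer in CG dinucleotides (median 19 against 6 over all entries), and the first and second of these motifs both hold a CG. These are matches of letters and not binding sites.

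In WT mESCs, the TSS windows of most splicing genes carried a short stretch of H2AK119ub. Of the 40 members, 29 (72.5%) were covered in at least 2 of 3 WT libraries, as were 31 (77.5%) in KO and 31 (77.5%) in WT siNC cells, beside 55.7%, 55.8% and 55.6% of all windows and 64.7%, 64.7% and 62.4% of the other spliceosome genes. In at least 7 of these 9 libraries 28 members were covered, beside 48.5% of all windows. They were 4 of the Sm ring, 2 of U1, 11 of U2 and U2AF, 6 SR genes and 5 of the U5 group. In all 9 there were 22 members, and the share of all windows was not computed for that count. No test was made of these shares. The covered length was small, with a median over members of 0.382 kb in a 10 kb window.

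Members of one complex differed in how steadily they were covered. Sf3b6, the subunit of SF3b that contacts the branch-point adenosine, held 0.372, 0.464 and 0.425 kb in the 3 WT mESC libraries, 0.476, 0.469 and 0.439 kb in KO and 0.379, 0.465 and 0.471 kb in WT siNC. Snrnp40, of the U5 snRNP, held 0.432, 0.487 and 0.539 kb in WT, 0.415, 0.555 and 0.524 kb in KO and 0.498, 0.543 and 0.586 kb in WT siNC. In both genes the 3 groups overlapped and no library was at 0. Sf3b1, whose product is the large scaffold of SF3b, was listed at 0 in WT replicates 1 and 2 and held 0.378 kb in replicate 3, with 0, 0.270 and 0.404 kb in KO and 0.215, 0.229 and 0.269 kb in WT siNC. Its mark was thus found in 1 WT library but in all WT siNC libraries. Listed at 0 in all 27 mouse H2AK119ub libraries were Snrpd1 (Sm ring), Sf3b3 (SF3b), the SR gene Srsf3 and, at its GENCODE start, Prpf6 (tri-snRNP). Snrpb, Snrnp200 (the helicase that unwinds U4 from U6) and Eftud2 (the GTPase of U5) were covered in 1 to 3 libraries.

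**Figure D1:**
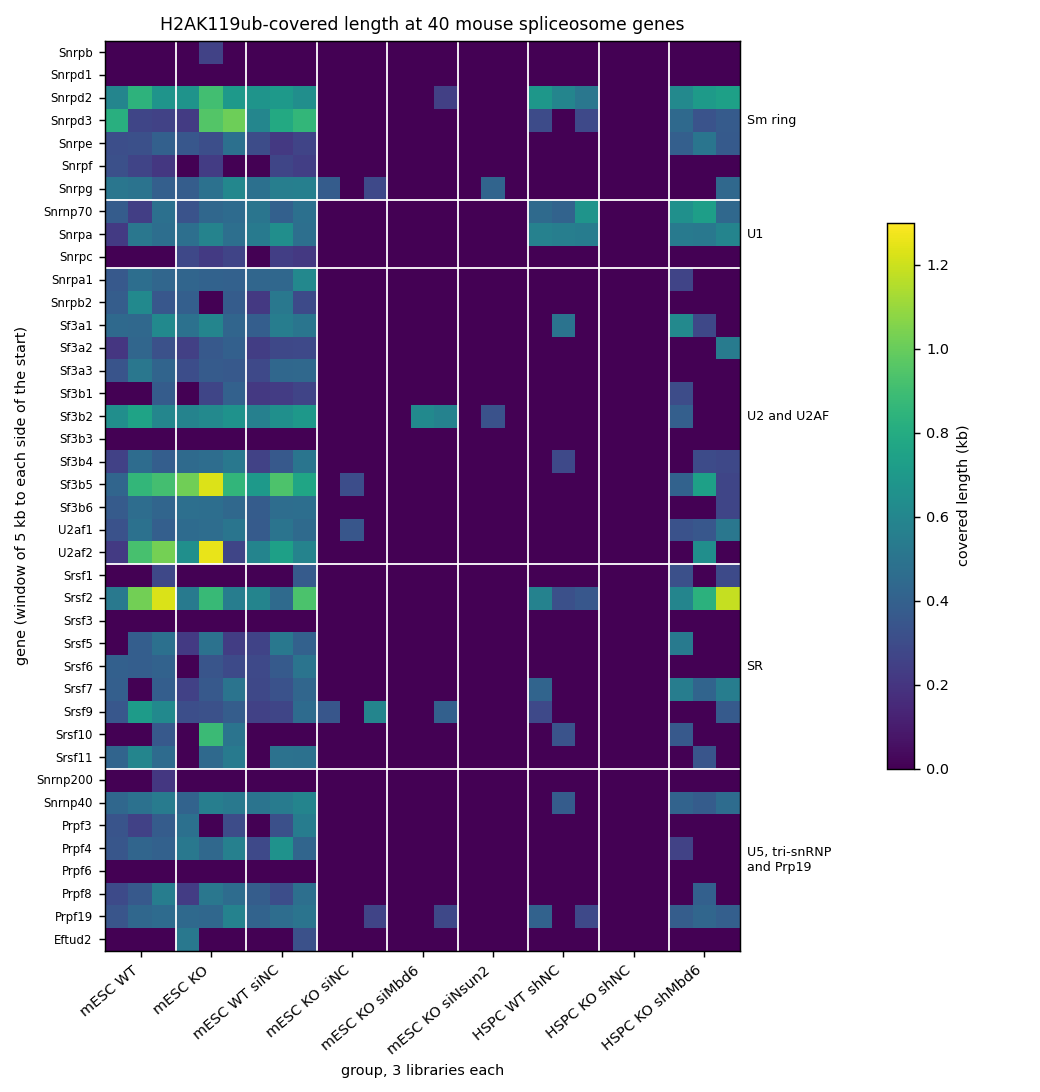
Covered kb within 5 kb of the TSS for each of the 40 mouse genes (rows, ordered by role) in every mouse library (columns, grouped). The windows filled in WT, KO and WT siNC mESCs are mostly empty in the KO siRNA groups, all are empty in KO shNC HSPCs, and 27 of 40 are filled in at least 1 KO shMbd6 HSPC library.

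**Figure D2:**
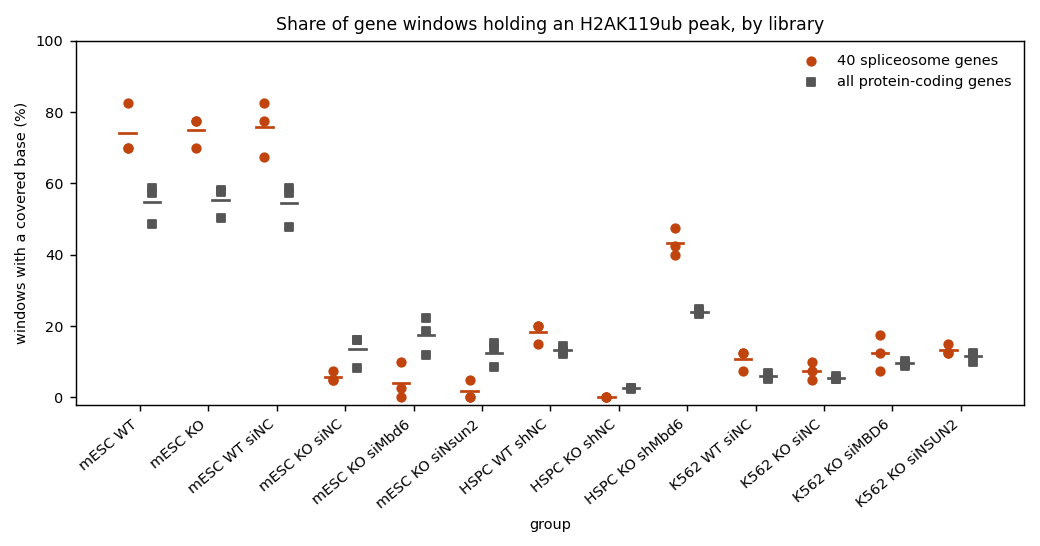
Percent of windows with a covered base in each H2AK119ub library (y axis) by group (x axis), for the 40 members (circles) and all protein-coding windows (squares), with the group mean as a line. The members lie above all windows in the 9 libraries of WT, KO and WT siNC mESCs and below them in the KO siRNA mESC groups.

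The peaks lay at the promoters. In the 9 libraries of WT, KO and WT siNC mESCs there were 279 peaks in members' windows, 237 of them centred within 1000 bp of the TSS, 167 centred upstream of it and 184 covering it. They were 205 to 1258 bp wide (median 433 bp), with the authors' fold enrichment between 2.97 and 8.15 (median 5.07). Over the members, 18.2% of the first kb upstream and 11.6% of the first kb downstream was covered in WT mESCs, beside 9.93% and 11.6% over all windows. The lean to the upstream side was also seen in WT HSPCs (5.59% and 2.52%, beside 2.59% and 2.44% over all windows) and in KO shMbd6 HSPCs (11.7% and 7.15%, beside 4.73% and 4.80%). In WT mESCs, 19 members held more upstream and 11 more downstream, or 63.3% upstream of those that differed, against 46.0% over all windows. Another protein-coding gene starts within the window of 15 mouse members, and for 14 of them it starts on the opposite strand within 1000 bp, so a peak there cannot be assigned to 1 of the 2 genes. Such pairs were Snrpd2 with Qpctl, Snrpd3 with Gucd1, Srsf2 with Mfsd11, Srsf7 with Ttc39d, Snrnp40 with Zcchc17 and Prpf4 with Cdc26.

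**Figure D3:**
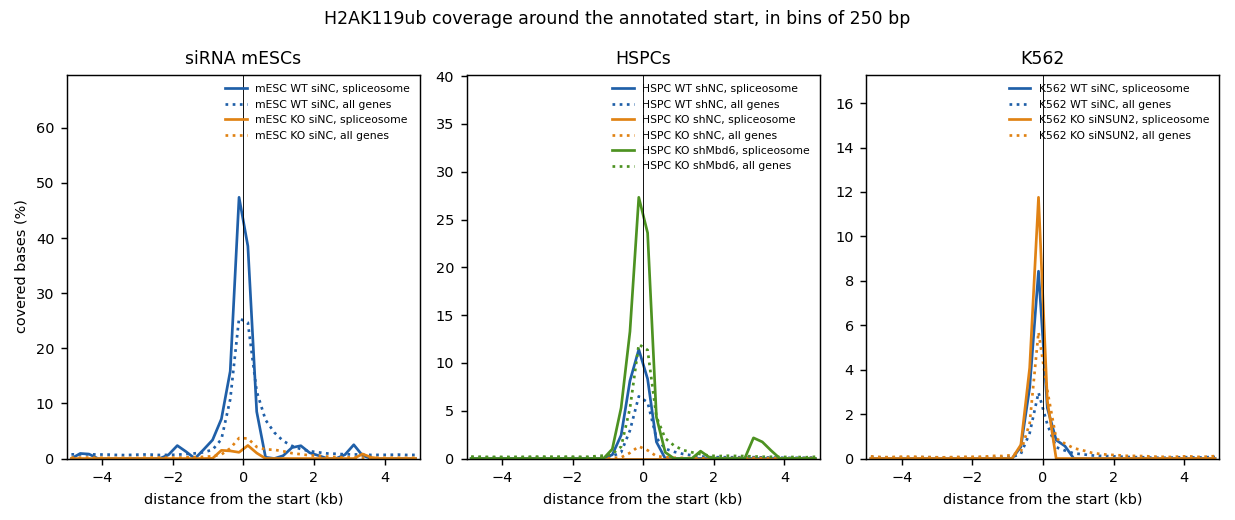
Percent of bases covered by distance from the TSS in kb (250 bp bins, upstream negative), as the mean of 3 libraries, for the members (solid) and all windows (dotted) in 7 of the groups. In WT siNC mESCs, WT and shMbd6 HSPCs and both K562 groups the members peak within 1 kb of the TSS, while in KO shNC HSPCs the members stay at 0.

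For a few members the annotated start set the value. Sf3b5, the small SF3b subunit, had no peak over its GENCODE start in any library. Its mESC peaks formed 2 sets, 1 about 2 kb upstream (bases -2102 to -1534 in KO replicate 2, for example) and 1 downstream (bases 2883 to 3545 in the same library). RefSeq begins this gene 3107 bp further on (chromosome 10, 13008450), inside what GENCODE gives as the 5′ UTR, and 12 of the 21 H2AK119ub peaks of Sf3b5 covered that position. All 3 peaks in KO shMbd6 HSPCs were among the downstream set (bases 3011 to 3419, 3011 to 3750 and 3079 to 3351). The start of Prpf6 in RefSeq lies 9451 bp from that in GENCODE. Measured there, a choice made after the data had been seen, Prpf6 was not empty at all. It held 0.440, 0.548 and 0.519 kb in WT mESCs, 0.378, 0.546 and 0.515 kb in KO and 0.361, 0.628 and 0.544 kb in WT siNC. Moving every gene with a RefSeq promoter entry to the start given there left the counts of called members at 26, 3, 11, 3 and 20 in the 5 comparisons below that had any. Sf3b5 and U2af2 have no such entry and stayed at their GENCODE starts, so their own placement was not checked in this way.

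Loss of Tet2 in untransfected mESCs, the steady-state comparison, left the mark at splicing genes with no called difference. Of the 32 members covered in at least 3 libraries of the experiment, the ones that were tested, limma called 0 lower and 0 higher (adjusted p under 0.05, as throughout), and 1 had an unadjusted p under 0.05, against 710 of 12820 windows. Over all windows tested 0.0234% were called in either direction. The median difference, KO minus WT, was 0.0257 kb over the tested members and 0.0300 kb over all. Of the other spliceosome genes, 59 were tested and 0 called. The smallest p belonged to Snrpc, the U1 protein C that steadies pairing with the 5′ splice site. It was listed at 0 in the 3 WT libraries and held 0.282, 0.222 and 0.269 kb in KO, so the groups did not overlap (difference 0.258 ± 0.0592 kb (SE, n = 3), limma adjusted p = 0.357). In WT siNC cells it held 0, 0.240 and 0.217 kb, so the peak was not absent from WT cells in general. It lay about 1.9 kb downstream of the GENCODE start. RefSeq begins Snrpc 1878 bp downstream of that start, and 3 of the 5 H2AK119ub peaks of this gene covered the RefSeq position. The call was made with no filter on low windows (limma adjusted p = 0.0272) and on a log2 scale (limma adjusted p = 0.00637). Where the filter was used, as on the log2 scale, Snrpc was tested through the 3 KO libraries alone, so a call could only be upward. WT at 0 adds no spread, so these p-values can be too small.

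The next 2 by p were lower in KO without a call. Snrpf, an Sm protein, held 0.319, 0.267 and 0.213 kb in WT and 0, 0.230 and 0 kb in KO (difference -0.190 ± 0.0882 kb (SE, n = 3), limma adjusted p = 0.933), and the groups overlapped. These peaks lay away from its start and at different places. They spanned bases -3077 to -2759 and -3018 to -2806 in WT replicates 1 and 3. In replicate 2 they spanned bases -4620 to -4354 in WT and -4678 to -4449 in KO. Srsf9, an SR protein, held 0.352, 0.716 and 0.615 kb in WT and 0.313, 0.324 and 0.384 kb in KO (difference -0.221 ± 0.107 kb (SE, n = 3), limma adjusted p = 0.933), and KO replicate 3 reached into the WT range.

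With siNC in both genotypes, the same comparison gave a far emptier KO. The members' windows summed to 10.96, 14.64 and 16.04 kb in the 3 WT siNC libraries and to 0.726, 0.654 and 1.149 kb in the 3 KO siNC libraries. The number of members covered in at least 2 of 3 libraries was 31 and 2, the 2 being Snrpg and Srsf9. Of 27 members tested, limma called 26 lower in KO and 0 higher, in a comparison where 71.9% of all windows tested were called lower. The median difference was -0.397 kb over the tested members and -0.418 kb over all. With no filter, 25 of the 40 were called, against 31.1% of all windows. KO siNC libraries also held 4251 to 9350 peaks against 24360 to 37392 in WT siNC, with 47 to 88 and 47 to 71 spike-in peaks, and the part of this in the result was not tested. When each library was scaled to the same total covered length, 21 of 27 members were lower, against 35.8% of all windows, and the median difference was -0.181 kb over members and -0.145 kb over all.

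The 6 largest called differences belonged to 2 Sm genes, 3 genes of U2 and U2AF and 1 SR gene. Snrpd3, an Sm protein, held 0.597, 0.792 and 0.863 kb in WT siNC and was listed at 0 in the 3 KO siNC libraries (difference -0.751 ± 0.0568 kb (SE, n = 3), limma adjusted p = 2.55e-06). Snrpd2, another Sm protein, held 0.673, 0.696 and 0.642 kb and was listed at 0 in KO (-0.670 ± 0.0592 kb (SE, n = 3), limma adjusted p = 7.02e-06). Neither gene had any peak left in the KO siNC libraries. U2af2, which reads the polypyrimidine tract, held 0.586, 0.739 and 0.579 kb and was listed at 0 in KO (-0.635 ± 0.0410 kb (SE, n = 3), limma adjusted p = 9.61e-07). Srsf2, an SR protein that binds exonic enhancers, held 0.584, 0.449 and 0.934 kb and was listed at 0 in KO (-0.656 ± 0.0973 kb (SE, n = 3), limma adjusted p = 0.000229). Their groups likewise did not overlap. Sf3b2, an SF3b subunit that touches the pre-mRNA near the branch point, held 0.565, 0.649 and 0.695 kb and was listed at 0 in KO (-0.636 ± 0.153 kb (SE, n = 3), limma adjusted p = 0.00429). Sf3b5 held 0.697, 0.937 and 0.765 kb, and in KO 0.307 kb in replicate 2 alone (-0.697 ± 0.0848 kb (SE, n = 3), limma adjusted p = 5.95e-05). Sf3b2 and Sf3b5 were not called after scaling (limma adjusted p = 0.369 and 0.154).

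By role, the lower calls were 4 of 4 tested Sm genes (of 7), 2 of 2 of U1 (of 3), 12 of 12 of U2 and U2AF (of 13), 4 of 5 SR genes (of 9) and 4 of 4 of the U5 group (of 8). The 26 differences ran from -0.751 to -0.238 kb, with a median of -0.418 kb and adjusted p up to 0.0423, and 22 of the 26 were listed at 0 in every KO siNC library. A group at 0 adds no spread to the model, so these p-values can be too small. An exact permutation test of 3 against 3 libraries can reach no lower than p = 0.1. Most members passed the filter through WT alone: without any 1 WT siNC library only 7 could be tested, and 5, 4 and 4 of these were called when replicate 1, 2 or 3 was left out. The tested member without a call was Srsf9, with 0.252, 0.271 and 0.453 kb in WT and 0.350, 0 and 0.594 kb in KO, where the groups overlapped (difference -0.0107 ± 0.151 kb (SE, n = 3), limma adjusted p = 0.949). Of 40 other spliceosome genes tested, 36 were lower. Acin1, a component of splicing-associated complexes, held 0.877, 0.98 and 0.916 kb in WT and was listed at 0 in KO (-0.924 kb, limma adjusted p = 2.98e-08).

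The difference between the 2 Tet2 comparisons in mESCs was tested directly, as the KO minus WT difference with siNC less that without transfection. Of 32 members tested, limma called 20 lower and 0 higher, and 39.3% of all windows tested were called lower. The medians were -0.417 kb over tested members and -0.399 kb over all. With no filter 16 of 40 were called, against 19.4% of windows, and after scaling 9 of 32, against 15.2%. The calls fell on 3 of 5 tested Sm genes, 3 of 3 of U1, 9 of 12 of U2 and U2AF, 1 of 7 SR genes and 4 of 5 of the U5 group. The SR gene was Srsf7. The untransfected and siNC libraries may have been made at different times, which the labels do not say.

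Among single genes, Snrpd2 fell by 0.670 kb with siNC, while without transfection it held 0.593, 0.838 and 0.673 kb in WT and 0.666, 0.904 and 0.697 kb in KO (difference of the differences -0.725 ± 0.115 kb (SE), limma adjusted p = 0.00170). Snrpa, the U1 A protein, held 0.222, 0.517 and 0.471 kb in WT and 0.473, 0.579 and 0.477 kb in KO without transfection, against 0.533, 0.640 and 0.476 kb in WT siNC and 0 in KO siNC (-0.656 ± 0.118 kb (SE), limma adjusted p = 0.00276). In both, KO overlapped WT before transfection and not with siNC. Prpf4, of the U4/U6 snRNP, held 0.346, 0.422 and 0.402 kb in WT and 0.518, 0.439 and 0.564 kb in KO, with 0.286, 0.664 and 0.425 kb in WT siNC and 0 in KO siNC (-0.575 ± 0.125 kb (SE), limma adjusted p = 0.00610). Without transfection every KO library of Prpf4 lay above every WT library, so part of its value comes from that side. Snrpd3 had the largest value (-1.03 ± 0.291 kb (SE), limma adjusted p = 0.0187), with untransfected WT libraries at 0.820, 0.273 and 0.257 kb and KO at 0.225, 0.952 and 1.011 kb. Its libraries differed widely within each untransfected group, and those groups overlapped. Sf3b5 (-1.0 ± 0.209 kb (SE), limma adjusted p = 0.00522) and Sf3b2 (-0.590 ± 0.0898 kb (SE), limma adjusted p = 0.00145) completed the 6 largest. Of these 6, all but Sf3b5 were at 0 in every KO siNC library. Such a group adds no spread, so the p-values can be too small. After scaling, Snrpd3, Sf3b5 and Sf3b2 were not called (limma adjusted p = 0.112, 0.165 and 0.0518). Of 64 other spliceosome genes tested, 29 were lower, the largest being Luc7l2 (-1.07 kb), a U1-associated factor.

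Knockdown of Mbd6 or Nsun2 in KO mESCs, which asks whether the effect of Tet2 loss needs these genes, was read against the KO siNC libraries that the comparison of genotypes used, so the comparisons share controls. Of 27 members tested with siMbd6, limma called 0, and 1 had an unadjusted p under 0.05, against 460 of 10756 windows. Of all windows, 0.177% were called in either direction. The median difference was 0 kb over members and over all. Among the tested members 4 were lower and 3 higher with siMbd6. The rest were listed at 0 in both groups compared and had passed the filter through WT siNC, so they could not be called. Of the 40 members, 1 (2.5%) was covered in at least 2 of 3 siMbd6 libraries, beside 16.3% of all windows and 7.06% of the other spliceosome genes. The members summed to 0, 0.615 and 1.503 kb in the 3 libraries. Sf3b2 was listed at 0 in siMbd6 replicate 1 and in the 3 KO siNC libraries and held 0.615 and 0.576 kb in replicates 2 and 3 (difference 0.397 ± 0.153 kb (SE, n = 3), limma adjusted p = 1.00). Without siMbd6 replicate 1 it was called higher (0.596 kb, limma adjusted p = 0.0220). Snrpg, an Sm protein, held 0.376, 0 and 0.289 kb in KO siNC and was listed at 0 with siMbd6 (-0.222 ± 0.122 kb (SE, n = 3), limma adjusted p = 1.00). U2af1, which reads the AG of the 3′ splice site, held 0.347 kb in KO siNC replicate 2 alone (-0.116 ± 0.0826 kb (SE, n = 3), limma adjusted p = 1.00). Prpf19 was covered in replicate 3 alone of each group, at 0.266 kb with siNC and 0.28 kb with siMbd6.

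With siNsun2, limma called 0 of 27 members tested, 0 had an unadjusted p under 0.05 (against 267 of 10756 windows), and 0.0186% of all windows were called in either direction. Here 5 tested members were lower and 1 higher. The rest were again at 0 in both groups and could not be called, so these counts say little about the members. The members were listed at 0 in siNsun2 replicates 1 and 3 and summed to 0.750 kb in replicate 2, where Sf3b2 held 0.330 and Snrpg 0.420 kb. In at least 2 of 3 libraries 0 of 40 members were covered, beside 11% of all windows. Srsf9 held 0.350, 0 and 0.594 kb with siNC and was listed at 0 with siNsun2 (-0.315 ± 0.151 kb (SE, n = 3), limma adjusted p = 1.00), and 1 siNC library was at 0 too. With both knockdowns 0 of 40 other spliceosome genes were called.

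In HSPCs of WT mice, 12 members were covered in at least 1 of 3 libraries and 6 (15%) in at least 2, beside 12% of all windows and 12.9% of the other spliceosome genes. In Tet2 KO shNC cells, all 40 members were listed at 0 in all 3 libraries, beside 2.07% of all windows and 1.18% of the other spliceosome genes that were covered in at least 2. The members summed to 3.695, 3.374 and 2.660 kb in WT. Of 13 members tested, limma called 3 lower in KO, and 22.7% of all windows tested were called lower. Of these 13, 9 were covered in fewer than 3 WT and KO shNC libraries and passed the filter only with the shMbd6 libraries of the same model. The median difference was -0.166 kb over the tested members and -0.215 kb over all. With no filter 3 of the 40 were called against 2.86% of windows, and after scaling 4 of 13, Srsf2 being added, against 17.9%. KO shNC libraries held 1398 to 1451 peaks against 3979 to 4629 in WT, and 205 to 231 spike-in peaks against 48 to 56. The part of these in the result was not tested.

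The 3 called genes belong to the Sm ring and to U1. Snrpd2 held 0.686, 0.591 and 0.516 kb in WT HSPCs (difference -0.598 ± 0.0624 kb (SE, n = 3), limma adjusted p = 0.00110). Snrpa held 0.571, 0.556 and 0.544 kb (-0.557 ± 0.0474 kb (SE, n = 3), limma adjusted p = 0.00109). Snrnp70, the U1-70K protein that binds the first loop of U1 snRNA, held 0.447, 0.415 and 0.671 kb (-0.511 ± 0.0936 kb (SE, n = 3), limma adjusted p = 0.00427). Every WT library lay above every KO library, which were at 0. The KO group thus adds no spread to the model, and these p-values can be too small. Both U1 genes tested were called, as was 1 of 3 Sm genes, and 0 of 4 of U2 and U2AF, 0 of 2 SR genes and 0 of 2 of the U5 group. Snrpe among the Sm genes, and Sf3b5 and U2af1 among those of U2 and U2AF, were at 0 in both groups and could not be called. Srsf2 held 0.578, 0.319 and 0.353 kb in WT and was not called (-0.417 ± 0.140 kb (SE, n = 3), limma adjusted p = 0.0692), although its groups did not overlap either. Without WT replicate 2, 5 members were called, Snrpd3 and Prpf19 being added. With peaks of -log10 q of at least 5 alone, none of the 3 was called: Snrpd2 and Snrnp70 missed the threshold (limma adjusted p = 0.113 and 0.429), Snrpa was covered in too few libraries to be tested, and Srsf2 was the 1 member called. Of 25 other spliceosome genes tested 5 were lower, among them Hnrnpa1 (0.581, 0.797 and 0.355 kb in WT, 0 in KO, -0.578 kb, limma adjusted p = 0.0188), which represses splice sites, and Lsm4 (-0.547 kb, limma adjusted p = 0.00110), of the ring that U6 carries in place of Sm proteins.

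**Figure D4:**
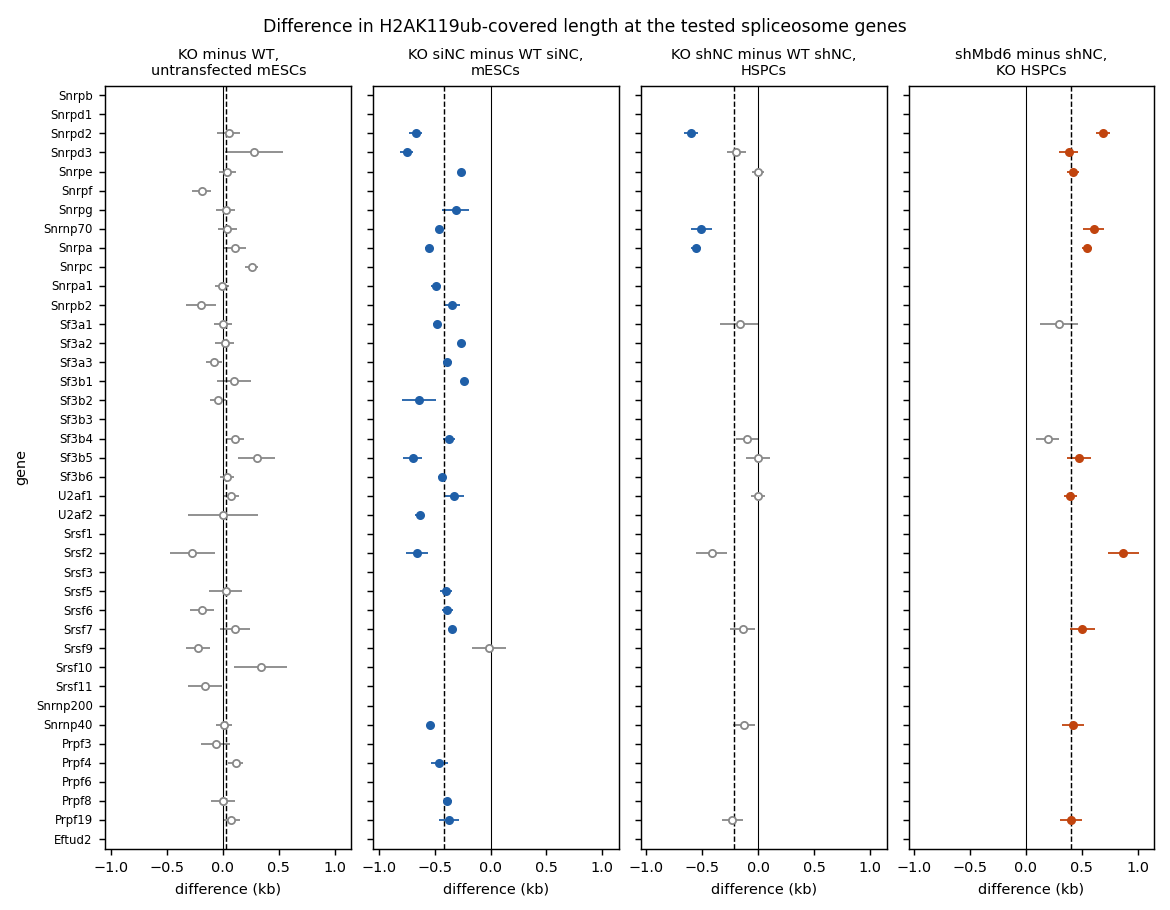
Difference in covered kb (points, with SE as bars) for each tested member in 4 mouse comparisons, filled where called, with the median over all tested windows as a dashed line. The 27 members tested for Tet2 loss with siNC lie below 0 and the 13 tested for Mbd6 knockdown in HSPCs lie above it. The latter could not lie below 0, since the control libraries were at 0 for every member.

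With Mbd6 knockdown in KO HSPCs, limma called 11 of the 13 splicing genes tested higher, as it did 72% of all windows tested. Members covered in at least 1 of 3 libraries were 27 with shMbd6 and 0 with shNC, and 14 of 40 (35%) were covered in at least 2 shMbd6 libraries, beside 23% of all windows and 36.5% of the other spliceosome genes. The members summed to 8.364, 7.904 and 8.075 kb. No member could be called lower, since all 40 were listed at 0 in the 3 control libraries. The median difference was 0.421 kb over the tested members and 0.404 kb over all. With no filter 9 of the 40 were called against 7.65% of all windows, and after scaling 7 of 13 against 27.9%. The shMbd6 libraries held 7650 to 8286 peaks against 1398 to 1451 with shNC, and 85 to 95 spike-in peaks against 205 to 231. The part of these in the result was not tested. The control libraries are those of the Tet2 comparison above, and all 11 called members were at 0 in them. Such a control adds no spread, so the p-values can be too small. Of the 13 tested members, 9 were covered in fewer than 3 libraries outside shMbd6, and 3 of these (Snrpe, Sf3b5 and U2af1) in none, so they were tested only through the group in which they were high. Without 1 of the shMbd6 libraries, as few as 8 could be tested.

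Srsf2 held 0.593, 0.834 and 1.187 kb with shMbd6 (difference 0.871 ± 0.140 kb (SE, n = 3), limma adjusted p = 0.00107). Its peaks reached from bases -717 to -125, -775 to 58 and -944 to 242 from the TSS, whereas in WT HSPCs they ended at bases -292, -289 and -322, upstream of the printed stretch. All 15 of its peaks in the series covered the outermost start that RefSeq gives the gene, 581 bp upstream. Snrpd2 held 0.613, 0.707 and 0.739 kb (0.686 ± 0.0624 kb (SE, n = 3), limma adjusted p = 0.000222). Snrnp70 held 0.652, 0.727 and 0.438 kb (0.606 ± 0.0936 kb (SE, n = 3), limma adjusted p = 0.000935). Both U1 genes tested were called, with Snrpa at 0.538, 0.520 and 0.584 kb (0.547 ± 0.0474 kb (SE, n = 3), limma adjusted p = 0.000219). Srsf7, an SR protein, held 0.550, 0.417 and 0.551 kb (0.506 ± 0.111 kb (SE, n = 3), limma adjusted p = 0.00463) and was not called after scaling (limma adjusted p = 0.106). Sf3b5 held 0.409, 0.740 and 0.273 kb (0.474 ± 0.106 kb (SE, n = 3), limma adjusted p = 0.00508). In each of these genes every shMbd6 library lay above the controls. Srsf2 had no peak of -log10 q of at least 5 in shMbd6 cells, and its difference was 0 in that setting.

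By role, 3 of 3 tested Sm genes, 2 of 2 of U1, 2 of 4 of U2 and U2AF, 2 of 2 SR genes and 2 of 2 of the U5 group were called. The 11 differences ran from 0.383 to 0.871 kb with a median of 0.474 kb. Other members steadily covered in WT mESCs were covered in a single shMbd6 library. Sf3b2 held 0.393 kb in replicate 1, U2af2 0.641 kb in replicate 2, Prpf8 0.397 kb in replicate 2 and Sf3b6 0.273 kb in replicate 3. Of 25 other spliceosome genes tested, 18 were higher, among them the RNA helicase gene Ddx42 (0.633, 0.809 and 0.709 kb, difference 0.717 kb, limma adjusted p = 0.000569).

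KO shMbd6 HSPCs were also set against WT shNC cells. Of 13 members tested, 3 were called higher and 0 lower, and 14.3% of all windows were called higher, with medians of 0.188 kb over the tested members and 0.153 kb over all. With no filter 2 of the 40 were called higher against 1.83% of all windows. After scaling, 3 were higher (9.74% of all windows) and 2, Snrpd2 and Snrpa, were lower, with a median of 0.0189 kb. For Snrpd2 this turned the direction, from 0.0887 kb unscaled to -0.245 kb scaled (limma adjusted p = 0.0318). Snrpe, an Sm protein, was listed at 0 in WT and held 0.392, 0.506 and 0.366 kb with shMbd6 (0.421 ± 0.0541 kb (SE, n = 3), limma adjusted p = 0.00149). U2af1 was listed at 0 in WT and held 0.330, 0.353 and 0.513 kb (0.399 ± 0.0603 kb (SE, n = 3), limma adjusted p = 0.00255). Sf3b5 was listed at 0 in WT and was called at the values above (limma adjusted p = 0.0178), but not with no filter (limma adjusted p = 0.163) or with these 2 groups alone (limma adjusted p = 0.0747). These 3 genes were marked in no WT or KO shNC HSPC library, so they were tested only because all 3 shMbd6 libraries held a peak, and a called difference was then bound to be upward. Groups at 0 add no spread, so their p-values can be too small. Snrpa, in contrast, held 0.571, 0.556 and 0.544 kb in WT against 0.538, 0.520 and 0.584 kb (difference -0.00967 ± 0.0474 kb (SE, n = 3), limma adjusted p = 0.909), and the groups overlapped. Left out 1 at a time, each shMbd6 library took the number of called members to 0, with 2, 3 and 8 windows called higher among all. Of 25 other spliceosome genes 6 were higher, among them Hnrnpk (0.449, 0.644 and 0.381 kb against 0 in WT, limma adjusted p = 0.00213).

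In human K562 cells few splicing genes carried the mark. Of the 40 members, 28 were listed at 0 in all 12 libraries and 8 were covered in 1 to 3. In WT siNC cells 3 (7.5%) were covered in at least 2 of 3 libraries, in TET2 KO siNC 2 (5%), in KO siMBD6 4 (10%) and in KO siNSUN2 4 (10%), beside 4.89%, 4.25%, 8.34% and 10.3% of all windows. The 4 members covered in more than 3 libraries were SF3B6 (12 of 12), SNRNP70 (11), SRSF9 (8) and SNRNP40 (6). Human SF3B6 starts 153 bp from FAM228B and SNRNP40 starts 194 bp from ZCCHC17, both on the opposite strand. SF3B6 held 0.383, 0.435 and 0.562 kb in WT, 0.389, 0.504 and 0.695 kb in KO siNC, 0.512, 0.422 and 0.433 kb with siMBD6 and 0.618, 0.625 and 0.407 kb with siNSUN2. It was the one member marked in every library of the line, and its 4 groups overlapped. SNRNP70 held 0.349, 0.278 and 0.281 kb in WT, 0.418, 0.284 and 0.388 kb in KO siNC, 0.269, 0.350 and 0.329 kb with siMBD6 and 0, 0.292 and 0.250 kb with siNSUN2.

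**Figure D5:**
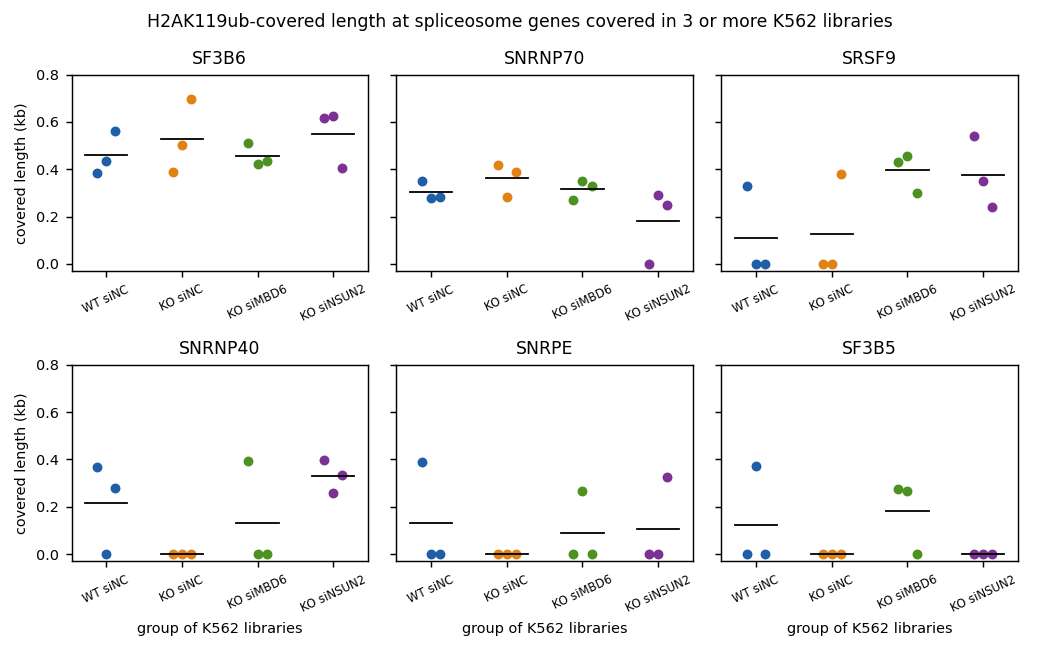
Covered kb in each K562 library (points) with the group mean (line), for the 6 members covered in 3 or more libraries, in the 4 K562 groups. SF3B6 is above 0 in 12 of 12 libraries and SNRNP70 in 11, whereas SNRPE and SF3B5 are covered in 3 libraries each.

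Of 6 members tested in K562, limma called 0 in each of the 3 comparisons, and percent of windows called in either direction was 0.122% for TET2 loss, 0% for MBD6 knockdown and 0% for NSUN2 knockdown. Unadjusted p-values under 0.05 were found for 0, 0 and 1 members, against 159, 264 and 362 of 2457 windows. The median differences over members and over all windows were -0.0533 and 0 kb for TET2 loss, 0.110 and 0.0897 kb for MBD6 knockdown and 0.0643 and 0.114 kb for NSUN2 knockdown. With TET2 loss, SNRNP40 held 0.367, 0 and 0.281 kb in WT and was listed at 0 in KO siNC (-0.216 ± 0.118 kb (SE, n = 3), limma adjusted p = 0.760). SF3B5 (0, 0.371 and 0 kb in WT, 0 in KO, limma adjusted p = 0.850) and SNRPE (0.391, 0 and 0 kb in WT, 0 in KO, limma adjusted p = 0.850) rested on 1 WT library each. With NSUN2 knockdown, SNRNP40 held 0.397, 0.257 and 0.333 kb against 0 in the 3 KO siNC libraries (0.329 ± 0.118 kb (SE, n = 3), limma adjusted p = 0.218), and with only these 2 groups in the model it was called (limma adjusted p = 0.0183). Its groups did not overlap. In the model of 2 groups SNRNP40 was tested only because all 3 siNSUN2 libraries held a peak, so a call could only be upward. The control at 0 adds no spread, so that p-value can be too small. SNRNP70 went the other way with siNSUN2 without a call (-0.183 ± 0.0886 kb (SE, n = 3), limma adjusted p = 0.341).

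The SR gene SRSF9 held 0.328, 0 and 0 kb in WT, 0, 0 and 0.379 kb in KO siNC, 0.431, 0.456 and 0.30 kb with siMBD6 and 0.542, 0.352 and 0.239 kb with siNSUN2. All 6 knockdown libraries were covered, against 1 of 3 in each control group, and neither comparison was called (siMBD6 0.269 ± 0.127 kb (SE, n = 3), limma adjusted p = 0.444, and siNSUN2 0.251 ± 0.127 kb (SE, n = 3), limma adjusted p = 0.341). The GENCODE start of human SRSF9 lies 26198 bp from that of its canonical transcript. Around the latter, peaks were listed in siMBD6 replicate 3 (0.230 kb) and siNSUN2 replicate 3 (0.354 kb) alone. With siMBD6, SF3B5 (0.275, 0.266 and 0 kb, limma adjusted p = 0.487) and SNRNP40 (0.395, 0 and 0 kb, limma adjusted p = 0.731) were each at 0 in the control. Of 16 other spliceosome genes tested, 0 were called in any of the 3 comparisons. The siMBD6 and siNSUN2 libraries held 3035 to 4575 peaks in all, against 2064 to 2351 in KO siNC.

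BAP1 itself was listed at splicing genes in 1 window of 1 library. Of the 40 members, 0 were covered in both BAP1 libraries of WT mESCs, beside 0.237% of all windows (52 of 21911). At that share, 0 of 40 says little about the members. The 2 libraries held 2013 and 2233 peaks. Sf3b5 held a peak of 0.299 kb in replicate 2 (bases -2062 to -1764), within the upstream set of its H2AK119ub peaks, and was at 0 in replicate 1.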

How the data were processed

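Covered lengths were computed from peak lists of 41 CUT&Tag libraries. Per the labels and the study's methods, the authors trimmed reads with Trimmomatic 0.39, mapped them with Bowtie2 2.4.1 to mm10 or hg38 together with the Drosophila genome of the spike-in, removed duplicates with Picard and ran MACS2 in broad mode on every library by itself. The deposited lists give start and end positions, a fold enrichment over local background, a mean −log10 p-value and −log10 q-value, and a score, which is the −log10 q times 10. The authors' spike-in normalisation is not part of these lists. Depth is unknown, so no interval for counting error is given, and precision is the spread between 3 libraries.

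For each library the kb covered within 5 kb of every protein-coding TSS was computed (Python 3.11.15, NumPy 2.4.6, pandas 2.3.3; figures with matplotlib 3.10.9). A window with a peak in 3 or more libraries of its experiment entered limma 3.58.1 (R 4.3.3, with the data.table package, version 1.17.8), two-sided on kb, with every H2AK119ub group of that experiment in the model. Calls needed an adjusted p (Benjamini-Hochberg, over all windows) under 0.05. Whether libraries of a group are biologically separate is not given in the labels, so p-values measure the spread between these libraries, which may be technical. The limma step was checked on simulated windows with known upward changes in 1 group, drawn with the same spread in every group. The check therefore does not cover genes listed at 0 throughout a group. Between replicates at most 0.1235% of peaks were identical, so none was treated as a duplicate.

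The members and gene lists were chosen with earlier results of these data known. Values in every library are given for up to 6 called members with the largest difference whose groups do not overlap, or for the 3 with the smallest p where none was called. The members covered in no library and up to 3 of the other spliceosome genes are named, and further members were picked as examples after their values were seen. Promoters and a second set of gene starts came from RefSeq tables (GRCm38.p6), whose positions are those of mm10. Protein sequences were not used here.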

Additional observations from a re-analysis of the deposited data

Results flagged for a closer look

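The Tet2 difference depended on the mESC experiment at 20 members, by the limma test of the difference itself (KO minus WT with siNC, less KO minus WT without transfection), all of them lower. The 6 members with the largest called values were Snrpd3 (-1.03 kb), Sf3b5 (-1.0 kb), Snrpd2 (-0.725 kb), Snrpa (-0.656 kb), Sf3b2 (-0.590 kb) and Prpf4 (-0.575 kb). Of all windows tested 39.3% were called in this direction. The siNC libraries of KO cells held 4251 to 9350 peaks and those of untransfected KO cells 26316 to 35509, and the part of this in the result was not tested.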

How the results depend on the processing

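Counts of called members, taken in 1 direction per comparison, stayed within 1.5 times of the values reported in 154 combinations of comparison and setting. They moved by more in 16. The 154 include counts that stayed at 0. The upward calls of Snrpc for Tet2 loss in untransfected mESCs (no filter, log2 scale) fell outside the counted direction and are not among the 16. In KO shMbd6 against WT HSPCs, 2 members were called in the direction opposite to the value reported: Snrpd2 after scaling (0.0887 to -0.245 kb) and Srsf2 with peaks of −log10 q of at least 5 (0.455 to -0.417 kb). Keeping only peaks with −log10 q of at least 5 took the count from 26 to 10 for Tet2 loss with siNC (10 tested), from 3 to 1 for Tet2 loss in HSPCs (5 tested; Srsf2, not 1 of the 3), from 11 to 2 for Mbd6 knockdown in HSPCs (5 tested), from 3 to 1 for KO shMbd6 against WT (Snrnp70, not 1 of the 3), with 1 lower, and from 20 to 6 for the difference of Tet2 losses (22 tested). Fewer windows remain testable in that setting by construction. Scaling to equal covered length took the count to 7 for Mbd6 knockdown in HSPCs and to 9 for the difference of Tet2 losses, and the cause was not tested. With only the 2 groups compared in the model, NSUN2 knockdown in K562 gave 1 (of 4 tested). Leaving out 1 library at a time gave 4 to 26 members for Tet2 loss with siNC, 0 to 1 for Mbd6 knockdown in mESCs, 3 to 5 for Tet2 loss in HSPCs, 8 to 11 for Mbd6 knockdown in HSPCs, 0 to 4 for KO shMbd6 against WT and 15 to 22 for the difference of Tet2 losses. It gave 0 for the other 5 comparisons.

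In the 4 mESC comparisons, replicates numbered 1 deviated together (correlation of their deviations 0.109 to 0.239), and replicate 1 had the fewest peaks in each mESC group. No comparison had every same-number correlation over 0.1 (lowest -0.0374, in HSPCs), so the numbers were not taken to pair the libraries. With the replicate block, the counts were 25 for Tet2 loss with siNC, 3 for Tet2 loss in HSPCs, 11 for Mbd6 knockdown in HSPCs, 3 for KO shMbd6 against WT, 21 for the difference of Tet2 losses and 0 in the other 6 comparisons. The setting with RefSeq or canonical transcript starts was chosen after seeing the data.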
